A study of Danio rerio with 30 samples.

Results

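The comparison described here is the microRNA (miRNA) response of the adult zebrafish spleen to bacterial lipopolysaccharide (LPS) in fish that had been kept at 24 °C as embryos. Its members are 10 of the 30 small-RNA libraries of the study, 5 from fish given LPS and 5 from controls, chosen by their titles. All the fish were of the AB strain and were adults of 100 days. The treated fish were injected in the body cavity with LPS from Pseudomonas aeruginosa (2 µl of a 50 mg/ml solution), and their spleens were taken 12 h later. The sources used here do not say whether control fish received a carrier injection. The other 20 libraries have the same layout after incubation at 28 and 32 °C. The labels do not say that the replicates of a group were separate fish, so a p-value here reflects only how far these libraries spread, which may be technical. Of 8866 rows in the count table, 364 passed the filter on low counts. Of these, 161 have zebrafish names (prefix dre), 61 are named by a chromosome and a number with no miRNA name, and the rest are named for another species. Zebrafish miRNAs are given here without the prefix. No miRNA sequences were compared here, and reads of one miRNA may be split between a zebrafish row and rows of the same name from other species.

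LPS comes from the outer membrane of Gram-negative bacteria and sets off innate immunity. In mammals it acts through the receptor TLR4 and the transcription factor NF-κB, which induces a small set of miRNAs in macrophages and lymphocytes, among them miR-146, miR-155, miR-21 and miR-132, and some of these limit the reaction by repressing its signalling proteins. Zebrafish respond to LPS less sensitively than mammals do and by a receptor that is less well defined. The spleen of fish filters blood and holds red cells, macrophages, lymphocytes and a vascular and connective-tissue frame. Its miRNAs therefore come from several cell types.

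Library totals ran from 282356 to 603137 counts in the controls and from 261435 to 961405 in the LPS group. The ratio of the geometric means was 1.24 (exact two-sided permutation test over 252 splits, p = 0.50; smallest possible p = 0.00794). The 10 most abundant rows held between 72.8% and 78.7% of the counts of each library. When every library was thinned to 261435 counts, 264.8 ± 30.9 rows had a count in the controls and 277.4 ± 68.3 in the LPS group (SD, n = 5; exact permutation test, p = 0.786). LPS library 8 stood apart with 392 rows. None of the 45 pairs of libraries agreed within sampling noise. The leukocyte miRNA miR-150 and the red-cell miRNA miR-451 were counted in all 10 libraries. The blood-cell miRNA miR-142a-3p was counted in only 3. The row ola-miR-142, named for another species, had reads in control libraries 3, 5 and 8 and in LPS libraries 1, 2, 6 and 8. Its highest value was 444 CPM, in LPS library 2.

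No miRNA passed the test between LPS and control spleens at 24 °C. In edgeR's quasi-likelihood test on all 30 libraries, with a mean for each of the 6 groups, 0 of 364 rows (percentage called: 0%) had a Benjamini-Hochberg adjusted p below 0.05, and the smallest adjusted p was 0.276. At an unadjusted p below 0.05 there were 44 rows (12.1%), of which 26 had a count in 2 or fewer of the 10 libraries. In no row (0%) were the 5 LPS values all above or all below the 5 control values. DESeq2 called 21 rows (5.77%), 13 higher and 8 lower, of which 20 were at 0 in every library of one group and none was counted in more than 4 libraries. The zebrafish rows among them were miR-125b-2-3p, miR-141-3p, miR-19b-3p, miR-200a-3p, miR-27c-3p and miR-9-5p (higher) and miR-183-5p and miR-206-3p (lower), and miR-19b-3p and miR-27c-3p had reads in LPS library 8 alone, at 5.15 and 10.3 CPM. A further 6 rows had no adjusted p in DESeq2. Counts of calls per list are edgeR's, and where DESeq2 called rows of a list these are named beside it. limma voom with library weights called 0.

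The balance of higher and lower estimates among rows that every library shared depended on the scaling and the libraries used. Of the 100 rows counted in all 10 libraries, 49 had a positive log2 difference (LPS minus control) and 51 a negative one, with a median of -0.02 and a range of -1.86 to 2.12. There were 59 positive with DESeq2's size factors (median 0.09), 64 with total counts (0.17), 76 with no filter on low counts (0.36) and 90 without control library 5 (0.89). The spread between replicates was wide. edgeR's coefficient of variation between replicates, fitted over all 30 libraries, was 1.01 at the median of the 100 most abundant rows. That set was chosen by abundance, not by a count in all 10 libraries. edgeR names this measure biological, but here it may include technical spread. For the 61 rows with a mean of 1000 CPM (counts scaled to a library of 1e6) or more, the 95% interval of the difference reached a median of 1.37 on the log2 scale to either side of the estimate. In 44 of these 61 rows the whole interval lay within a log2 difference of 2 in either direction.

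**Figure D1:**
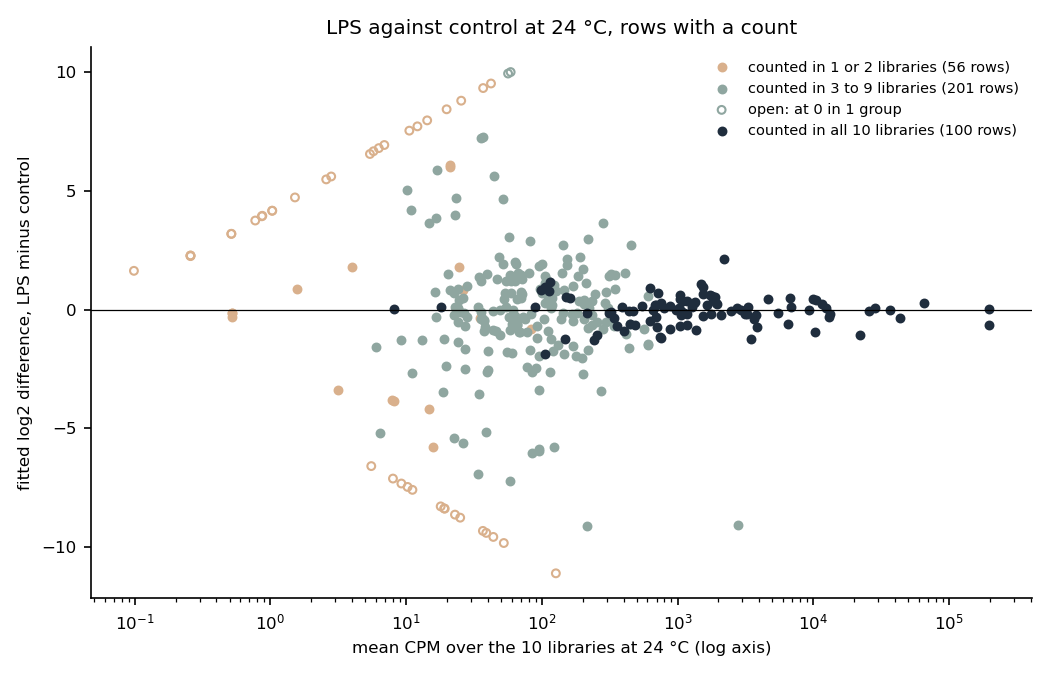
Fitted log2 difference between LPS and control against the mean CPM (log axis) over the 10 libraries at 24 °C, for the 357 rows with a count there. The 100 rows counted in every library lie between -1.86 and 2.12, while most rows counted in 1 or 2 libraries lie along 2 arms, where rows at 0 in one group (open points) take a fitted value that depends on the prior count and is not a fold change.

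Among the miRNAs that inflammation induces in mammals, none passed the test, and most estimates were above 0. The list of the miR-146, miR-155, miR-21, miR-132, miR-212, miR-147, miR-221 and miR-222 families had 15 tested rows. Of these, 12 had a positive and 3 a negative difference, 0 of 15 were called, and the median was 0.69. With rows at 0 in one group set to their bound of 3 counts it was 0.52, beside 0.00 and -0.05 for all 364 rows. For the 6 rows of the list counted in all 10 libraries the median was 0.18. Without LPS library 1, 9 of the 15 rows were positive and the median was 0.33. It was 1.05 without control library 1 and 1.55 without control library 5, with 14 of 15 rows positive in each. The median of the 100 shared rows was itself 0.08 without LPS library 1, 0.32 without control library 1 and 0.89 without control library 5. Values by library are CPM scaled by TMM factors and are given for control libraries 1, 3, 5, 8 and 9 and for LPS libraries 1, 2, 3, 6 and 8, in that order throughout. In whole spleen, fewer cells of a type and less RNA per cell cannot be told apart.

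miR-21, which is induced in many inflamed tissues, was by far the most abundant member. Its controls held 61452, 56854, 50817, 92551 and 36847 CPM. The LPS libraries held 142276, 78627, 49172, 28578 and 60033 CPM. LPS library 1 was above every control and LPS library 6 was below every control, so the LPS group spread on both sides of the controls. The log2 difference was 0.26 ± 0.47 (SE; 95% interval -0.68 to 1.21; edgeR adjusted p = 1). The salmon-named row ssa-miR-21a-5p had 2251, 2929, 1024, 5906 and 2649 against 3529, 2914, 1422, 2807 and 3916 CPM. Every LPS value of that row lay within the control range.

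miR-146a and miR-146b repress adaptor proteins of Toll-like receptor signalling in mammals. For miR-146a the controls were at 1342, 840.2, 1749.6, 1809 and 399.6 CPM and the LPS libraries at 2844, 717, 905, 1082 and 1022 CPM. LPS library 1 alone exceeded the controls, and the other 4 LPS libraries lay within the control range, giving a log2 difference of 0.10 ± 0.78 (95% interval -1.48 to 1.68; edgeR adjusted p = 1). miR-146b was counted at 8.98, 622, 606, 949 and 565 CPM in controls and at 1462, 342, 599.7, 906 and 1159 CPM after LPS. Control library 1 was far below the other 9, and LPS libraries 1 and 8 lay above all controls. Its difference was 0.70 ± 0.87 (95% interval -1.06 to 2.46; edgeR adjusted p = 1). The sparse rows ssa-miR-146a-3p and ola-miR-146a-5p reached at most 221 and 89.5 CPM in controls and at most 149 and 36 CPM after LPS.

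miR-155, the miRNA best known for its induction in activated macrophages and lymphocytes of mammals, was at the limit of counting. The zebrafish row was at 0 in 9 libraries and at 2.57 CPM in LPS library 8, below the 7.72 CPM that 3 counts make there. Rows of the same miRNA name from other species held a few more reads. The tilapia-named oni-miR-155 had 10.5, 0, 0, 2.22 and 0 CPM in controls and 0, 0, 0, 115 and 103 CPM in LPS libraries, and the human-named hsa-miR-155-5p had 12, 2.63, 178, 2.22 and 0 against 61.1, 2.28, 0, 312 and 66.9 CPM. LPS library 6 held the highest value of both rows, with controls and LPS libraries overlapping at or near 0. The fitted differences were 3.97 ± 2.19 and 1.19 ± 1.83 (edgeR adjusted p = 0.491 and 1). No row of miR-132, miR-212 or miR-147 was among the tested rows of this list.

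miR-221 and miR-222 are neighbours on the genome (RefSeq, assembly GRCz12tu) and in mammals repress the cell-cycle inhibitor p27. miR-222a-3p stood at 2191, 1562, 1527, 1146 and 1282 CPM in controls and at 3802, 1744, 2357, 1314 and 1833 CPM after LPS. The groups overlapped, with LPS libraries 1 and 3 above every control, and the difference was 0.52 ± 0.57 (edgeR adjusted p = 1). miR-221-3p, with 1811, 888, 702, 1071 and 557 against 485, 1382, 1339, 949.7 and 1079 CPM, showed no such order (difference 0.06 ± 0.98). For miR-222b the values were 1.5, 2.63, 90.7, 95.3 and 0 CPM in controls and 356, 2.28, 0, 611 and 283 CPM in the LPS group. LPS libraries 1, 6 and 8 were above all controls, while LPS libraries 2 and 3 were at or near 0 (difference 2.72 ± 1.78; edgeR adjusted p = 0.689).

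The fish-specific pair miR-462 and miR-731, adjacent genes in the same assembly, is induced by interferon and viral infection in several teleosts. Of 4 tested rows, 3 had a positive difference and 0 were called, with a median of 0.16. miR-462 was at 2079, 2618, 1431, 1459 and 1373 CPM in controls and at 2290.5, 1739, 3314, 545 and 2593 CPM after LPS. LPS library 3 was the highest and LPS library 6 the lowest of all 10. Its difference was 0.23 ± 0.68 (95% interval -1.14 to 1.60; edgeR adjusted p = 1). The more abundant tilapia-named row oni-miR-462 had 6465, 9366, 4286, 5982 and 6893 CPM in controls and 7219, 8841, 6881, 4786 and 7590.4 CPM in LPS libraries, and every LPS value lay within the control range (difference 0.10 ± 0.56). miR-731 ranged from 591 to 2186 CPM in controls and from 628 to 2846 CPM after LPS, with the highest value in LPS library 2 (difference 0.28 ± 0.88).

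**Figure D2:**
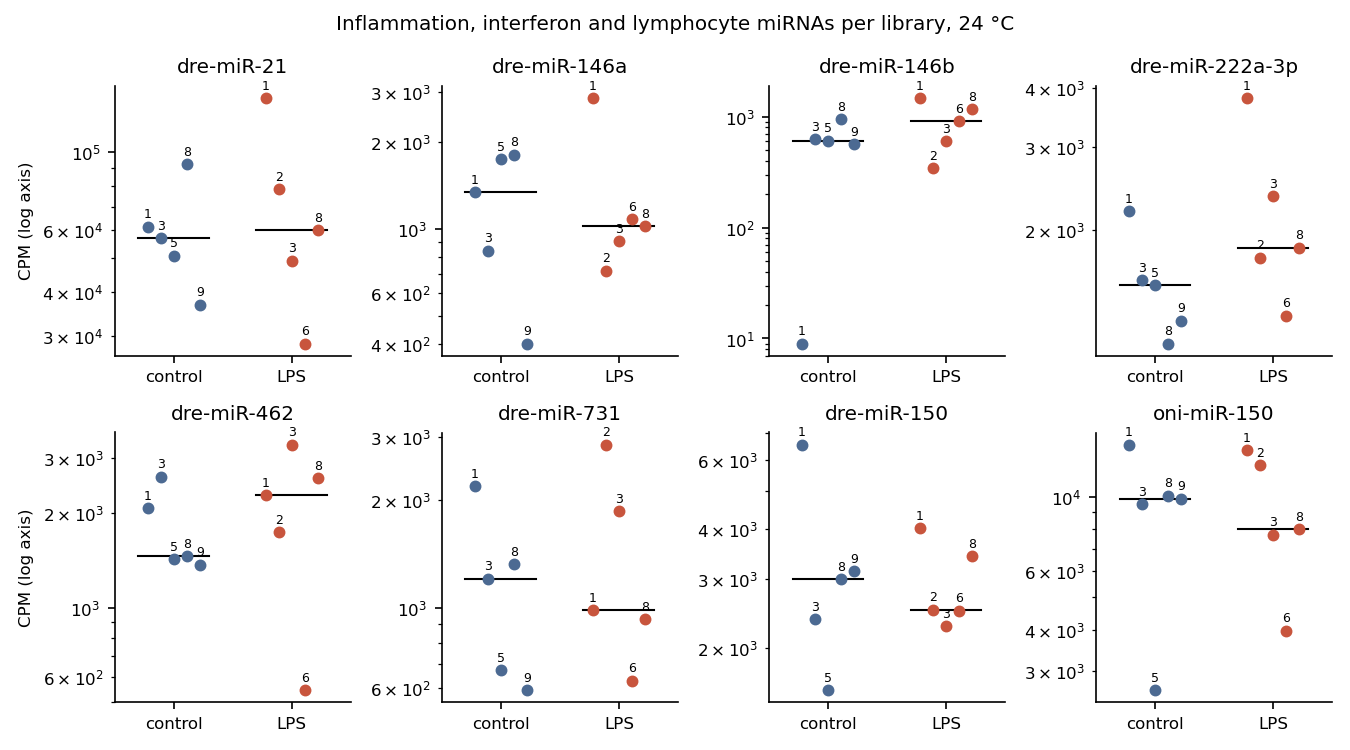
CPM (log axis) of 8 immune-related rows in each library at 24 °C. Points are libraries with their replicate number, the line is the group median, and in every panel the LPS and control values overlap.

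The leukocyte miRNAs, from lymphocytes and myeloid cells, had a median difference near 0. Of 22 tested rows of the miR-142, miR-223, miR-150, miR-155 and miR-181 families, 10 had a positive and 11 a negative difference, 0 were called, and the median was -0.01. The balance turned to 13 positive and 8 negative with total-count scaling, and to 18 and 3 without control library 5, where the median of the 100 shared rows was itself 0.89. Their summed share of all counts was 3.59 ± 1.32% in controls and 3.94 ± 1.49% after LPS (SD, n = 5).

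miR-150, a marker of mature lymphocytes that falls on their activation in mice, was at 6543, 2373, 1568, 2986 and 3139.6 CPM in controls and at 4032, 2504, 2279.8, 2488 and 3419 CPM in LPS libraries. All 5 LPS values lay within the control range, and the difference was -0.17 ± 0.56 (95% interval -1.32 to 0.97; edgeR adjusted p = 1). The tilapia-named row oni-miR-150 had 14344, 9521, 2636, 10106 and 9895 against 13798, 12481, 7705, 3979 and 8020.4 CPM, again with every LPS value inside the control range (difference -0.02 ± 0.59). miR-181a-5p, which tunes T cell receptor sensitivity in mice, was at 12655, 9939.7, 9108, 19141 and 9944 CPM in controls and 23239, 20818, 3668, 8559.8 and 7951 CPM after LPS. LPS libraries 1 and 2 were above all controls and LPS libraries 3, 6 and 8 were below all of them, so the difference of 0.08 ± 0.53 averages opposite deviations.

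miR-223, the miRNA of neutrophils and other myeloid cells, was uneven in both groups. Controls held 0, 298, 342, 313 and 2.85 CPM and LPS libraries 79.9, 346, 352, 0.911 and 77.2 CPM, with near-zero values in control libraries 1 and 9 and in LPS library 6 (difference -0.16 ± 1.72; 95% interval -3.65 to 3.33). The cod-named row gmo-miR-223a-3p was more evenly counted, with 619.6, 967, 1138, 299 and 188 against 688, 603, 1039, 903 and 443 CPM. All LPS values were inside the control range (difference 0.20 ± 1.03). miR-142a-3p, a blood-cell miRNA, had counts in control library 5 (219.4 CPM) and in LPS libraries 1 and 8 (144.9 and 10.3 CPM).

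The let-7 family, which marks differentiated cells and in mammals represses RAS proteins and interleukin-6, made up the largest share of any list, and 2 of its members had an unadjusted p below 0.05 with a negative difference. Neither passed after adjustment. Over the whole list below, 4 of 33 rows had an unadjusted p below 0.05 in either direction, beside 44 of 364 (12.1%) among all rows. Together with the miR-98, miR-99, miR-100 and miR-125 families it held 51.1, 38.5, 58.3, 38.4 and 44% of counts in the controls and 27.4, 28.3, 35.9, 62.2 and 38% in the LPS libraries. LPS library 6 was the highest of all 10, and the other 4 LPS libraries lay below every control. The list had 33 tested rows, of which 13 had a positive and 18 a negative difference and 0 were called by edgeR (1 by DESeq2, miR-125b-2-3p), with a median of -0.07. With no filter on low counts 22 were positive and 9 negative, the median of the 100 shared rows then being 0.36.

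let-7f had 31463, 40475, 45516, 20143 and 11131 CPM in controls and 15165, 8408, 7705, 26681 and 13579 CPM after LPS. All LPS values were below the control median, but control library 9 was lower than LPS libraries 1, 6 and 8. The log2 difference was -1.06 ± 0.43 (95% interval -1.93 to -0.18; edgeR adjusted p = 0.276). let-7g had 13913, 17638, 19155, 10026 and 6790.0 CPM in controls and 7069, 5899, 2908, 11813 and 6957 CPM after LPS, with the same order of groups and the same low control library 9 (difference -0.96 ± 0.42; edgeR adjusted p = 0.282). let-7a, one of the 2 most abundant rows, had 244689, 265521, 352821, 149454 and 189255 CPM in controls. Its LPS values were 117468, 90576, 108747, 313101 and 146367 CPM. LPS library 6 was above 4 of the 5 controls, and the other 4 LPS libraries were below every control (difference -0.63 ± 0.34; 95% interval -1.31 to 0.05; edgeR adjusted p = 0.459).

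Without control library 5, where the median of the 100 shared rows was 0.89, the differences of let-7a, let-7f and let-7g became 0.37, -0.10 and -0.06. Relative to that median they were -0.52, -0.99 and -0.95, against -0.61, -1.04 and -0.95 with all 10 libraries. Without LPS library 6 the fitted differences were -1.06, -1.41 and -1.25. The remaining abundant let-7 rows differed less: -0.62 ± 0.42 for let-7h, -0.32 ± 0.41 for let-7d-5p, -0.20 ± 0.39 for let-7c-5p and -0.02 ± 0.43 for let-7b. For let-7b, LPS library 6 held 67985 CPM against 26262 to 33142 CPM in the other 4 LPS libraries.

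The miR-100 and miR-125 genes lie beside let-7a genes in the zebrafish genome (RefSeq, GRCz12tu). The zebrafish rows miR-100-5p, miR-125a and miR-125b-5p did not share the let-7 order, but the cod-named row gmo-miR-100b-5p did. That row had 777, 361, 293, 173 and 114 CPM in controls and 99.6, 2.28, 2.58, 682 and 23.2 CPM after LPS. Its LPS libraries 1, 2, 3 and 8 lay below every control, and LPS library 6 lay above all but control library 1. miR-100-5p was at 1107, 619, 462.3, 1929 and 1085 CPM in controls and at 1784, 2425, 1910.2, 2360.1 and 1658 CPM after LPS. Every LPS value was above the control median, though control library 8 lay within the LPS range (difference 0.96 ± 0.75; edgeR adjusted p = 0.888). miR-125a, an abundant relative, had a difference of 0.08 ± 0.49, and miR-125b-5p one of 0.12 ± 0.62. The passenger strand miR-125b-2-3p was at 0 in all controls and at 85.8, 339 and 138.4 CPM in LPS libraries 1, 2 and 6 (edgeR adjusted p = 0.276; DESeq2 adjusted p = 0.00268).

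**Figure D3:**
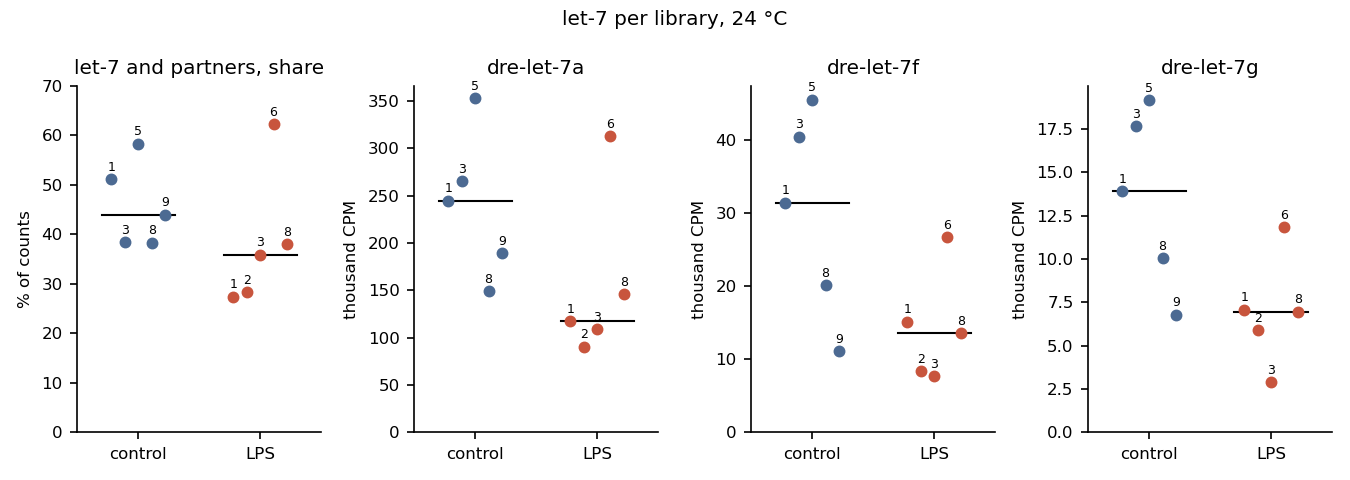
Share of counts in the let-7, miR-98, miR-99, miR-100 and miR-125 families (first panel, per cent of each library's counts) and CPM of let-7a, let-7f and let-7g (1e3 CPM). Numbers mark the replicate and lines the group median; LPS library 6 sits at 62.2% in the first panel, above the other 4 LPS libraries at 27.4% to 38.0%.

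The miR-17-92 clusters and their relatives, which promote lymphocyte proliferation and survival in mice, showed no common direction. Of 26 tested rows of that list, which also holds miR-15, miR-16 and miR-34, 12 had a positive and 13 a negative difference and 0 were called by edgeR (1 by DESeq2, miR-19b-3p), with a median of -0.03. miR-92a-3p, as abundant as let-7a with a mean of 197877 against 197800 CPM over the 10 libraries, was at 183477, 269003, 150500.0, 182833 and 202547 CPM in controls and 296965, 259282, 145609, 114137 and 174414 CPM after LPS. LPS library 1 was the highest and LPS library 6 the lowest of the 10 (difference 0.00 ± 0.50; 95% interval -1.01 to 1.02). miR-25-3p was at 4679.7, 4419, 2534, 7554 and 1447 against 5175, 5114, 1342, 725 and 3329 CPM (difference -0.40 ± 0.61), and miR-16b had a difference of 0.17 ± 0.71.

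The red-cell miRNAs miR-451 and miR-144, which share a gene cluster and are needed for erythrocyte maturation in zebrafish, had no positive estimate. Of 5 tested rows 0 were higher and 4 lower in the LPS group, 1 had no count at 24 °C, and 0 were called. Without control library 5 there were 2 positive and 2 negative estimates, the median of the 100 shared rows then being 0.89. miR-451 was at 1663, 10832, 5439, 4449.8 and 1849 CPM in controls and at 1122, 1204, 3337, 2167 and 2541 CPM after LPS. Every LPS value was below the control median of 4450 CPM, while control libraries 1 and 9 lay inside the LPS range. The difference was -1.22 ± 0.89 (95% interval -3.03 to 0.58; edgeR adjusted p = 0.775). miR-144-5p, with 465, 985, 1480.4, 709 and 0 against 313, 232, 7.75, 693 and 788 CPM, overlapped throughout (difference -0.84 ± 1.09). The list's share of counts was 0.623 ± 0.381% in controls and 0.356 ± 0.124% after LPS (SD, n = 5).

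Among the vascular and stromal miRNAs, the LPS values of miR-143, miR-126b-3p and miR-214 all lay above the control median. No row of the list passed the test. miR-100-5p, outside the list, had the same order, and the share of such rows among all rows is not given here. Of 24 tested vascular and stromal rows 15 had a positive and 9 a negative difference, 0 were called and the median was 0.26. Without LPS library 3 the balance was 10 to 14 with a median of -0.26, and with the library total as a covariate it was 11 to 13. Their summed share was 2.01, 0.614, 2.77, 1.98 and 1.03% in controls and 2.51, 2.51, 3.07, 2.57 and 2.37% after LPS. The LPS libraries were close together, control libraries 3 and 9 were the lowest, and control library 5 lay above 4 of the 5 LPS libraries.

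miR-143, a smooth-muscle miRNA, was at 6395, 3426, 13268, 3182 and 1609.7 CPM in controls and 12127, 5548, 8421, 5727 and 7536 CPM after LPS, with the highest value in control library 5 (difference 0.50 ± 0.63; edgeR adjusted p = 1). miR-126b-3p, from an endothelial family that supports vessel integrity in zebrafish, was at 2339, 279, 2168, 973 and 239.7 against 1709, 1129, 2187, 2768 and 1596 CPM. Control libraries 3 and 9 were well below the LPS range and control libraries 1 and 5 were inside it (difference 0.65 ± 0.73). Other rows of the family did not share this order. miR-126a-3p was at 612, 13.2, 1059, 2.22 and 71.4 against 283, 0, 734, 82.9 and 121 CPM. ccr-miR-126-3p was at 418, 2.63, 339, 0 and 0 against 165, 2.28, 2.58, 0 and 23.2 CPM. The sparse miR-126a-5p, miR-126b-5p and gmo-miR-126-3p reached at most 76.1, 52.7 and 52.7 CPM in controls and 74.7, 83.8 and 41.4 CPM after LPS.

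miR-214, transcribed next to miR-199 and found in mesenchymal cells, had 112, 221.2, 129, 0 and 134 CPM in controls and 176, 587, 812, 1623 and 772 CPM after LPS. LPS libraries 2, 3, 6 and 8 were above every control, and LPS library 1 was below control library 3. The difference was 2.73 ± 1.75 (95% interval -0.81 to 6.28; edgeR adjusted p = 0.689). Rows of that name from other species carried more reads: hsa-miR-214-3p had 826, 593, 1159, 1357 and 839 against 362.8, 3019, 933, 3487 and 2361 CPM (difference 1.09 ± 1.22), and the groups overlapped. ssa-miR-214-3p, the salmon-named row, had a difference of 0.56 ± 1.30. The 9 rows of the list with a negative difference included mmu-miR-145a-3p, with 171, 2.63, 26.3, 120 and 0 against 20.7, 0, 0, 0 and 5.15 CPM. ola-miR-199a-3p had 515, 190, 568, 2.22 and 385 against 178, 0, 0, 187 and 144 CPM. The groups overlapped in both rows.

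Several miRNAs of other organs were present, unevenly between the libraries of a group. miR-375, a miRNA of pancreatic islet and other endocrine cells, was at 859, 429.3, 717, 339 and 1787 CPM in controls and 8385, 7142, 295, 1537 and 654 CPM after LPS. LPS libraries 1 and 2 were several times above every control, LPS library 3 was below every control, and the other 2 lay in the control range. Its difference of 2.12 ± 0.90 was the highest among rows counted in all libraries (95% interval 0.29 to 3.96; edgeR adjusted p = 0.282). Without LPS library 1 it was 1.52. In the acinar-cell families, miR-216b reached 208 CPM in LPS library 1 and was at 0 in 8 libraries, and ccr-miR-217 was at 58.4, 2.63, 0, 0 and 0 CPM in controls and 317, 2.28, 2.58, 30.0 and 162 CPM after LPS. The 6 tested rows of the pancreas list had 5 positive and 1 negative difference and 0 calls. Their summed share was 0.0387% to 0.222% in controls and 0.044% to 0.945% after LPS. The part of pancreatic tissue in these values was not tested.

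The muscle miRNAs miR-206-3p and ccr-miR-133a-3p were found mainly in control library 8. miR-206-3p was at 2069 CPM there, at 79.9 CPM in control library 9 and at or below 2.57 CPM in the other 8. ccr-miR-133a-3p was at 958 CPM in the same library and 309.8 CPM in control library 1, and at 0 elsewhere (edgeR adjusted p = 0.276). miR-1 was highest in LPS library 8, at 247 CPM, with 102 CPM in control library 8 and at most 2.85 CPM elsewhere. Of the 3 tested rows of the muscle list, 1 had a positive and 2 a negative difference, with 0 calls by edgeR. DESeq2 called 2 of them lower, miR-206-3p (adjusted p = 0.00328) and ccr-miR-133a-3p (adjusted p = 3.66e-11).

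miR-122, the hepatocyte miRNA, was at 2769, 142.2, 2080.2, 1403 and 771 CPM in controls and 2075, 1170.2, 339, 463 and 494 CPM after LPS (difference -0.66 ± 0.96). It was the only tested row of the liver list, and both groups spanned a wide, overlapping range. Of 13 gut and epithelial rows 8 had a positive and 5 a negative difference, with 0 calls by edgeR and 3 by DESeq2 (miR-141-3p, miR-200a-3p and ipu-miR-205). Among them the skin and epithelial miRNA miR-203a-3p peaked in control library 3 (1931 CPM), and ipu-miR-205 was counted there alone (524 CPM). The zebrafish row miR-205-5p was at 0, 0, 170, 2.22 and 0 CPM in controls and 49.3, 200, 0, 129 and 118 CPM after LPS. miR-200a-3p was at 417 CPM in LPS library 2, at 5.15 CPM in LPS library 8 and at 0 in all others. The neural list had 3 tested rows, with miR-9-5p at 367 CPM in LPS library 2 and miR-183-5p at 179.6 CPM in control library 8, both called by DESeq2 and neither by edgeR. The gonad and embryo list had 1 tested row, ssa-miR-202-5p, which was counted in control library 3 and LPS libraries 1 and 2.

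**Figure D4:**
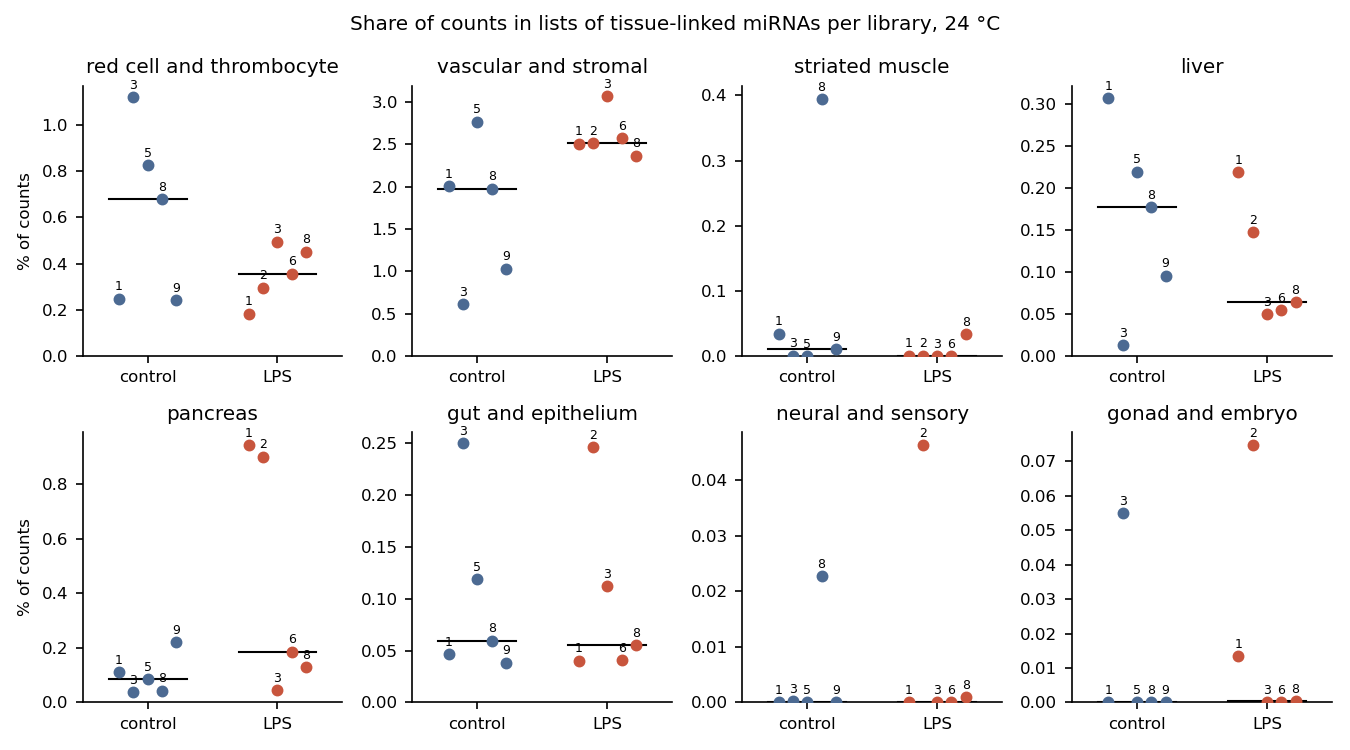
Share of each library's counts (per cent, linear axes from 0) in 8 lists of tissue-linked miRNAs, with replicate numbers and group medians. High values belong to particular libraries: control 8 for striated muscle, LPS 1 and 2 for pancreas.

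The rows with the smallest p were mostly rows with reads in very few libraries. Of 63 rows counted in 2 or fewer libraries at 24 °C, 7 of them in none, 26 were among the 44 with an unadjusted p below 0.05, and 27 of those 44 were at 0 in one whole group. chr4_36463 was at 26740 CPM in control library 9, 1127 CPM in control library 3 and 54.3 CPM in LPS library 3, and at 0 elsewhere. miR-363-3p, a relative of the miR-17-92 cluster, was counted in control libraries 3 and 5 only, at 205.4 and 23.4 CPM. chr6_38657 was counted in LPS libraries 1, 2 and 8 only, at 110 to 321 CPM. Each had an edgeR adjusted p of 0.276, and a fitted fold change is not given for a row at 0 in one group.

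Sparse rows with most reads in a single library also included several members of the miR-27 family. miR-27a-3p, miR-27d and miR-27e held 919, 932 and 1048 CPM in control library 3, and at most 164 CPM elsewhere. How reads were divided among these members is not given in the sources used here. Their better-counted relative miR-27b-3p was at 859, 1354, 977, 1102 and 1304 CPM in controls and 999.8, 969.9, 5.17, 327 and 909 CPM after LPS, with LPS libraries 3 and 6 below all controls (difference -0.80 ± 1.16; edgeR adjusted p = 1). Of 20 tested rows in the list of miR-210, miR-34, miR-23, miR-24 and miR-27, 10 had a positive and 9 a negative difference and 0 were called by edgeR. DESeq2 called 3, ipu-miR-24, miR-27c-3p and ssa-miR-24a-4-5p, each counted in 1 or 2 libraries.

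The remaining lists gave no call in edgeR either. The miR-30 family had 7 positive and 6 negative differences in 13 rows. Its most abundant row, miR-30c-3p, was at 8375, 17217, 12973, 6798 and 8651 CPM in controls and 9098, 10889.6, 23597, 9143 and 9892 CPM after LPS, with LPS library 3 the highest (difference 0.21 ± 0.69). The miR-10 family, of Hox cluster origin, had 2 positive and 3 negative differences in 5 rows, none of which was counted in all libraries. The list of miRNAs that repress epigenetic enzymes in mammals (miR-29, miR-148, miR-152, miR-101 and miR-26) had 4 positive and 4 negative in 8 rows, and DESeq2 called 1 of them, ipu-miR-29b, which was counted in 1 library. Its most abundant member, miR-26a-5p, had 2785, 6079, 4705, 3193 and 685 against 3007, 2598, 4624, 2658 and 2268 CPM (difference -0.20 ± 0.67). The human-named hsa-miR-1260a and hsa-miR-1260b reached 25351 and 25307 CPM in LPS library 8, against 7182 to 9321 CPM in the other LPS libraries, and chr13_7690 reached 129929 CPM in control library 3.

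Whether the response at 24 °C differed from that at 28 or 32 °C was tested as an interaction in the same model. Each temperature has its own 5 controls and 5 LPS libraries. No row passed for 24 minus 28 °C (0%; 44 at an unadjusted p below 0.05; smallest edgeR adjusted p = 0.0946) or for 24 minus 32 °C (0%; 28 at an unadjusted p below 0.05; smallest adjusted p = 0.391). DESeq2 called 31 and 19 of the 364 rows, and limma voom called 0 and 1. None of the 31 was counted in more than 7 of the libraries at 24 °C. Of the 19, all but miR-375 were counted in 5 or fewer of them.

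Among the immune miRNAs the estimates at all 3 temperatures were imprecise. For miR-21 the log2 difference was 0.26 ± 0.47 at 24 °C, -0.07 ± 0.47 at 28 °C and 0.56 ± 0.47 at 32 °C. miR-146a had 0.10 ± 0.78, -0.33 ± 0.78 and 1.22 ± 0.79, and miR-731 had 0.28 ± 0.88, 1.14 ± 0.89 and 0.57 ± 0.88, in the same order. Their interactions had 95% intervals that included 0, from -1.01 to 1.68 for miR-21 against 28 °C and from -3.38 to 1.65 for miR-731 against 28 °C.

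let-7f was near 0 at the other temperatures, at -0.03 ± 0.43 and -0.14 ± 0.43, and the interaction was -1.03 ± 0.61 against 28 °C (edgeR adjusted p = 0.537) and -0.92 ± 0.61 against 32 °C (edgeR adjusted p = 0.997). miR-375 was 1.13 ± 0.88 at 28 °C and -2.01 ± 0.90 at 32 °C. Its interaction against 32 °C of 4.14 ± 1.28 had the smallest p among rows counted in 5 or more of the libraries at 24 °C (edgeR adjusted p = 0.391). DESeq2 called it, with 4.22 and an adjusted p of 0.00932, and it was the only one of its 19 rows counted in every library at each temperature. At 32 °C the controls had a median of 2529 CPM (992 to 5033) and the LPS libraries one of 763 CPM (119 to 1461), the reverse order of the medians of 717 and 1537 CPM at 24 °C, with overlap at both. limma voom gave an adjusted p of 0.189 for the interaction. When each library at 24 °C was left out, the edgeR estimate ran from 3.52 to 5.08, with adjusted p from 0.1999 to 0.518. miR-451 was -0.23 ± 0.88 and -1.21 ± 0.89, with the estimates at all 3 temperatures below 0.

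**Figure D5:**
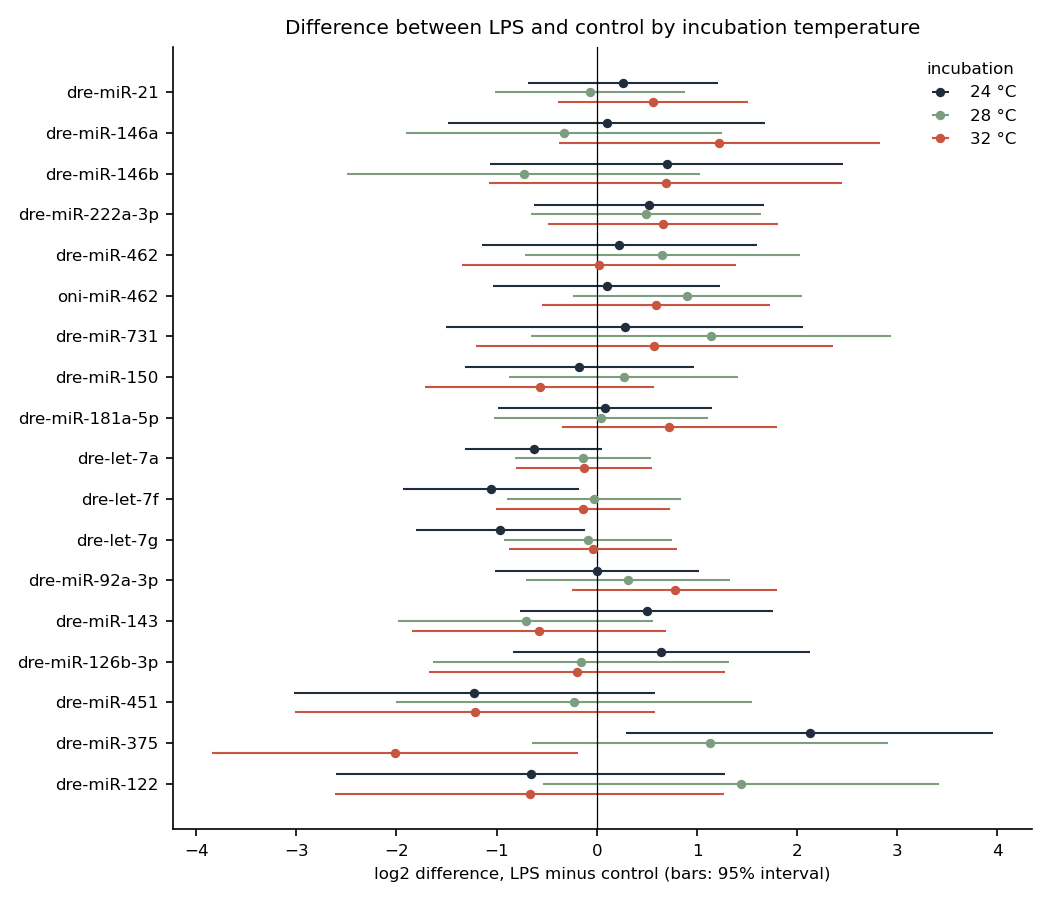
Log2 difference between LPS and control spleens (points) with 95% intervals (bars) for 18 rows after incubation at 24, 28 and 32 °C. Intervals overlap between temperatures for most rows; for miR-375 the estimates are 2.12 at 24 °C and -2.01 at 32 °C.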

How the data were processed

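Small-RNA libraries of zebrafish spleen, made from 50 ng of RNA with 22 cycles of PCR, gave the deposited counts. The authors deposited raw counts per miRNA row in a single table of 30 libraries, and no column of it belonged to another sample. Tools listed without roles per the submitters' processing notes are DESeq2 1.11.1, FastQC 0.11.5, cutadapt 1.12 and bcl2fastq. An aligner, a miRNA reference and a genome build were not given in the sources used here, and no molecular identifiers are described, so counts are not independent molecules.

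Libraries were grouped by their titles. Rows were kept by edgeR's filterByExpr over 6 groups, which left 364 rows holding 99.7% of the counts at 24 °C. Counts were scaled by TMM and tested in R 4.3.3 with edgeR 4.0.16 (robust quasi-likelihood, 24 residual degrees of freedom) with Benjamini-Hochberg adjustment over all 364 rows and a threshold of 0.05. Errors are the log2 difference divided by the root of F. limma 3.58.1 and DESeq2 1.42.0 served as alternatives, beside other scalings, filters, library subsets, thinning, a depth covariate, a replicate block and leaving out each library. The fit was checked on simulated counts. Pass conditions were set only for a spread between replicates far below that of these data, so the check does not show what could be detected here. CPM are TMM-scaled, and list shares are of raw totals.

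Rows were named by rule from those with a mean of 10 CPM or more: the 20 smallest p, since none passed, the 10 most abundant, for each list its most abundant row and its 2 smallest p, and the zebrafish rows of miR-146, miR-155, miR-21, miR-223, miR-142, miR-150, miR-462 and miR-731. let-7g, let-7h, miR-100-5p, miR-222a-3p, miR-126b-3p, miR-25-3p, miR-16b, miR-140-5p, miR-199-5p, miR-27a-3p, miR-27d and miR-27e were named after their values were seen. So were the rows of the same names from other species and other rows given beside a relative. The members and lists were chosen with earlier results of these data known.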

Additional observations from a re-analysis of the deposited data

Results flagged for a closer look

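Of 97 groups of 5 libraries examined for one value standing apart (Dixon's test, critical ratio 0.71, rows counted in 3 or more libraries of the group), 15 had such a value. For independent groups of normally distributed values, chance would give about 1 in 20, or 4.85 groups. The ratios were taken on unlogged CPM, which are skewed, and some rows, such as hsa-miR-1260a and hsa-miR-1260b, moved together. The 15 groups can therefore not be read as an excess over 4.85. Each of the 15 is given as a value only.

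Among let-7 and immune rows, let-7a stood at 313101 CPM and let-7b at 67985 CPM in LPS library 6, above 90576 to 146367 CPM and 26262 to 33142 CPM in the other LPS libraries. miR-146a stood at 2844 CPM in LPS library 1, above 717 to 1082 CPM, and gmo-miR-181c-5p at 168 CPM in control library 9, where the other controls reached at most 37.7 CPM.

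In LPS library 8, hsa-miR-1260a was at 25351 CPM and hsa-miR-1260b at 25307 CPM, against at most 8754 and 9321 CPM in the other LPS libraries. chr13_7690 was at 129929 CPM in control library 3 (25306 to 30252 CPM in the other controls) and at 63000.4 CPM in LPS library 3 (28096 to 35136 CPM in the other LPS libraries). LPS library 3 also held 23597 CPM of miR-30c-3p (9098 to 10890 CPM elsewhere in its group) and 346 CPM of miR-7146-3p (at most 15.8 CPM).

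LPS library 1 held 50.3 CPM of miR-30c-5p and 63.1 CPM of ssa-miR-30d-2-3p, against at most 5.15 and 15.4 CPM in its group. miR-148 was at 142.951 CPM in LPS library 6 (at most 12.9 CPM elsewhere in the group). miR-199-5p was at 3920 CPM in control library 8 (387 to 1229 CPM), and miR-203a-3p at 1931 CPM in control library 3 (at most 328 CPM).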

How the results depend on the processing

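The count of 0 rows past the threshold at 24 °C was the same under every alternative run except DESeq2, which called 21. DESeq2 called 0 among rows counted in 5 or more libraries at 24 °C, an alternative chosen after seeing the data. The interaction with 28 °C gave 31 calls in DESeq2 and 4 with zebrafish rows alone (miR-140-5p, miR-196a-5p, miR-200a-3p and miR-206-3p). Those 4 rows were counted in 1, 1, 2 and 4 of the 10 libraries at 24 °C, in that order. The interaction with 32 °C gave 19 calls in DESeq2 and 1 (ccr-miR-217) in limma voom. The excess of 12.6 rows with a count at an equal total ranged from -16.05 (without LPS library 8) to 27.7 when each library was left out. The median log2 difference of the 100 shared rows ranged from -0.10 (without LPS library 2) to 0.89 (without control library 5). Of the 79 named rows, 35 changed sign under at least 1 of the alternatives, none of them with a value past the threshold on the other side; of the 36 named rows counted in all 10 libraries, 12 kept their sign throughout. The cause of these changes was not tested. Whether same-numbered control and LPS libraries pair cannot be told from the few numbers they share. The correlation of deviations was 0.308, 0.071 and 0.111 for numbers 1, 3 and 8, and only number 1 was closest to its own. With the replicate block, 0 rows were called. At these depths 3 counts make 2.73 to 8.78 CPM, so rows under that level could not be followed.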
